A study of Sus scrofa domesticus with 12 samples.

Results

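Mitochondrial ribosomal protein (MRP) genes were examined in pig skeletal muscle after volumetric muscle loss (VML), a surgical excision of muscle too large to regrow. The genes were taken by name, as every row called MRPL (large subunit) or MRPS (small subunit) followed by a number and at most 1 letter. This gave 65 of the 11506 genes in the table, 40 MRPL and 25 MRPS. Of these, 64 were among the 8782 genes tested, and MRPS18A did not pass the filter on low values. A further 12 RefSeq pig genes have names of this form but are not among the names in the table, and were not analysed here.

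RNA came from the peroneus tertius (PT) muscle, a dorsiflexor of the foot, of Yorkshire Cross pigs, 12 weeks after surgery. Per the study's methods the pigs were female, and surgery was performed on both hindlimbs. The 12 limbs of 11 pigs comprised 2 Sham limbs, operated on without VML (pigs 25 and 26), 2 No repair limbs, in which the defect got no implant (pigs 17 and 23), 2 HA limbs, in which it was filled with a hyaluronic acid hydrogel (pigs 16 and 17), and 6 ECM-SIS limbs, in which it received an acellular extracellular matrix sheet (pigs 13, 14, 18, 21, 22 and 24). All 6 are labelled ECM-SIS, for small intestinal submucosa, whereas the study's text counts urinary bladder matrix limbs among those sequenced, in the same number as small intestinal submucosa limbs. The labels do not tell them apart, so they are treated as 1 group that may hold both sheets. Pig 17 gave both a No repair and a HA limb, and the remaining limbs each came from a different pig.

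Mitochondria keep their own ribosomes, which translate the few messages of the mitochondrial genome, all of them subunits of the respiratory chain and ATP synthase. The ribosomal RNAs are made inside the organelle, while every MRP is encoded in the nucleus, translated in the cytosol and imported. Some MRPs have counterparts in bacterial ribosomes and others are particular to mitochondria. In skeletal muscle, mitochondria are most abundant in oxidative fibers, and the respiratory chain they assemble draws on both genomes.

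Values are TPM, a length-corrected abundance that expresses each transcript as a share of its library and does not give the number of reads behind it. Of 18 muscle fiber markers fixed for the tissue 15 were found, and together they made up 18.5 and 18.9% of the TPM that named genes hold in the Sham limbs and 1.07 to 9.14% in the 10 injured limbs. The median gene was 0.73 higher (log2) in injured than in Sham limbs; the part of the fiber markers in that shift was not tested. A library scaling by trimmed means of log ratios, which assumes that most genes do not differ, brought that median to 0.06. After it, limma at an adjusted p under 0.05 still called 31% of all genes tested higher and 26.1% lower in injured limbs. The assumption thus did not hold on these calls. Fold changes are therefore given on both scales, as "TPM" and as "rescaled", and neither gives an amount per cell or per gram of muscle. Fewer cells of a type and less RNA per cell cannot be told apart in these bulk samples.

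As a share of the library the MRP genes stood almost still. Their summed level was 2408 TPM in Sham pig 25 and 2368 TPM in Sham pig 26, and ran from 2363 TPM (ECM-SIS pig 24) to 2974 TPM (HA pig 17) over the injured limbs, with a median of 2582 TPM. As a percentage of the named genes' TPM this was 0.327% ± 0.0052 (SD, n = 2) in Sham and 0.327% ± 0.0327 (SD, n = 10) in injured limbs. The Sham limbs lay inside the range of the injured ones on this scale. After rescaling, the sum was 3326 and 3985 in the Sham limbs and 1594 to 3407 in the injured limbs, so that HA pig 17 alone overlapped them.

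Nuclear genes for the respiratory chain, whose mitochondrially encoded partners these ribosomes translate, did not keep their share. The 62 subunits summed to 4.27 and 4.37% in the Sham limbs and to 1.55 to 4.32% in the injured limbs. The sum of respiratory chain subunits over that of MRP genes, a ratio that no library scaling can alter, was 12.9 and 13.5 in the Sham limbs and 5.18 to 10.9 in the injured limbs, without overlap. In the opposite direction, the 73 genes of cytosolic ribosomal proteins summed to 28.3 and 29.8 times the MRP genes in the Sham limbs and to 38.4 to 73.8 times in the injured limbs. MRP genes thus lay between these lists, below the cytosolic ribosome and above the respiratory chain in their shift.

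**Figure D1:**
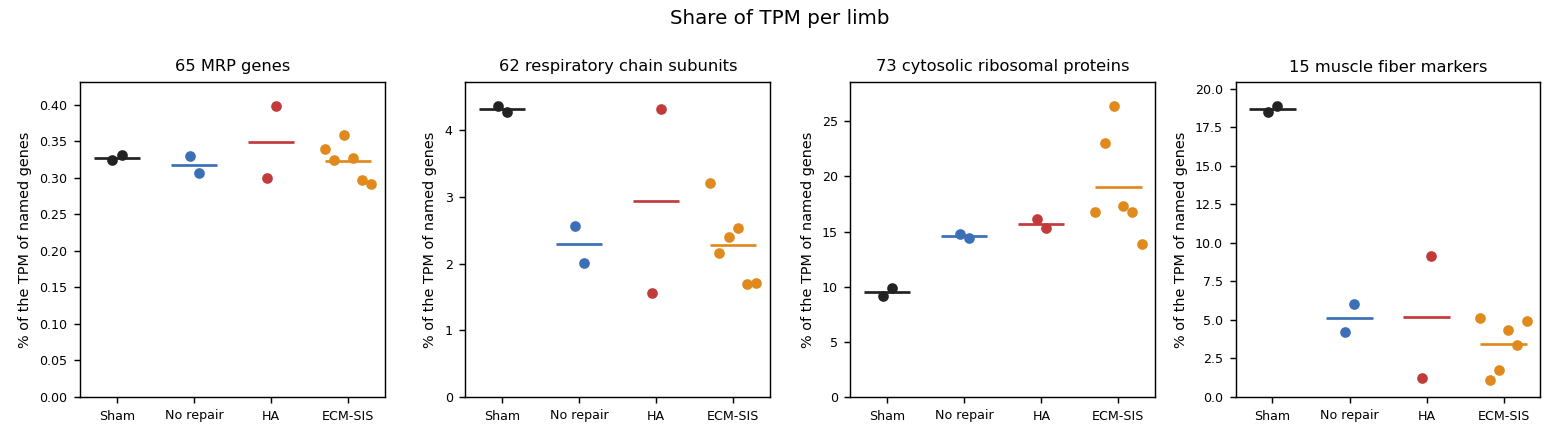
Summed TPM of 4 gene lists as a percentage of the TPM of all named genes (y axis, from 0), with 1 point per limb and a line at the mean of each group (Sham n = 2, No repair n = 2, HA n = 2, ECM-SIS n = 6). MRP genes overlap between Sham and injured limbs, cytosolic ribosomal proteins are higher and muscle fiber markers lower in all 10 injured limbs, and the highest respiratory chain value among injured limbs, 4.32% in HA pig 17, lies between those of the Sham limbs.

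Gene by gene, the MRP fold changes in TPM had both signs, with a narrower spread than over all genes. The SD of the log2 fold changes over the 64 MRP genes was 0.52. It was 1.31 over all genes tested and 1.29 over genes of similar level. In VML-injured versus Sham (the 3 injured groups weighted equally, limma with Benjamini-Hochberg adjustment over 8782 genes), 17 of the 64 MRP genes were called higher and 2 lower on the TPM scale, or 26.56 and 3.125% of them, where 49.4% of all genes tested were called higher and 7.66% lower. The median log2 fold change of the MRP genes was 0.11, against 0.73 for all genes, and ran from -1.20 to 1.30. After rescaling no MRP gene was called higher (0 by limma with trimmed means and 0 with median-of-ratios scaling, 1 at an unadjusted p of 0.05) and 30 were called lower, 46.88% of them, against 31% and 26.1% of all genes, and the median was -0.61. The direction of the set as a whole thus depended on the scale. The MRP median lay below that of all genes on both. A library scaling shifts all genes nearly alike, so the rescaled gap adds no separate support. Leaving out a Sham limb leaves 1 Sham library, and calls over all genes were not counted in the left-out fits. Without Sham pig 25 only 4 were called higher and 0 lower on the TPM scale and 4 lower after rescaling. Without Sham pig 26 the counts in TPM were 9 higher and 0 lower. In TPM 9 were called lower without HA pig 17 and 1 without No repair pig 23.

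**Figure D2:**
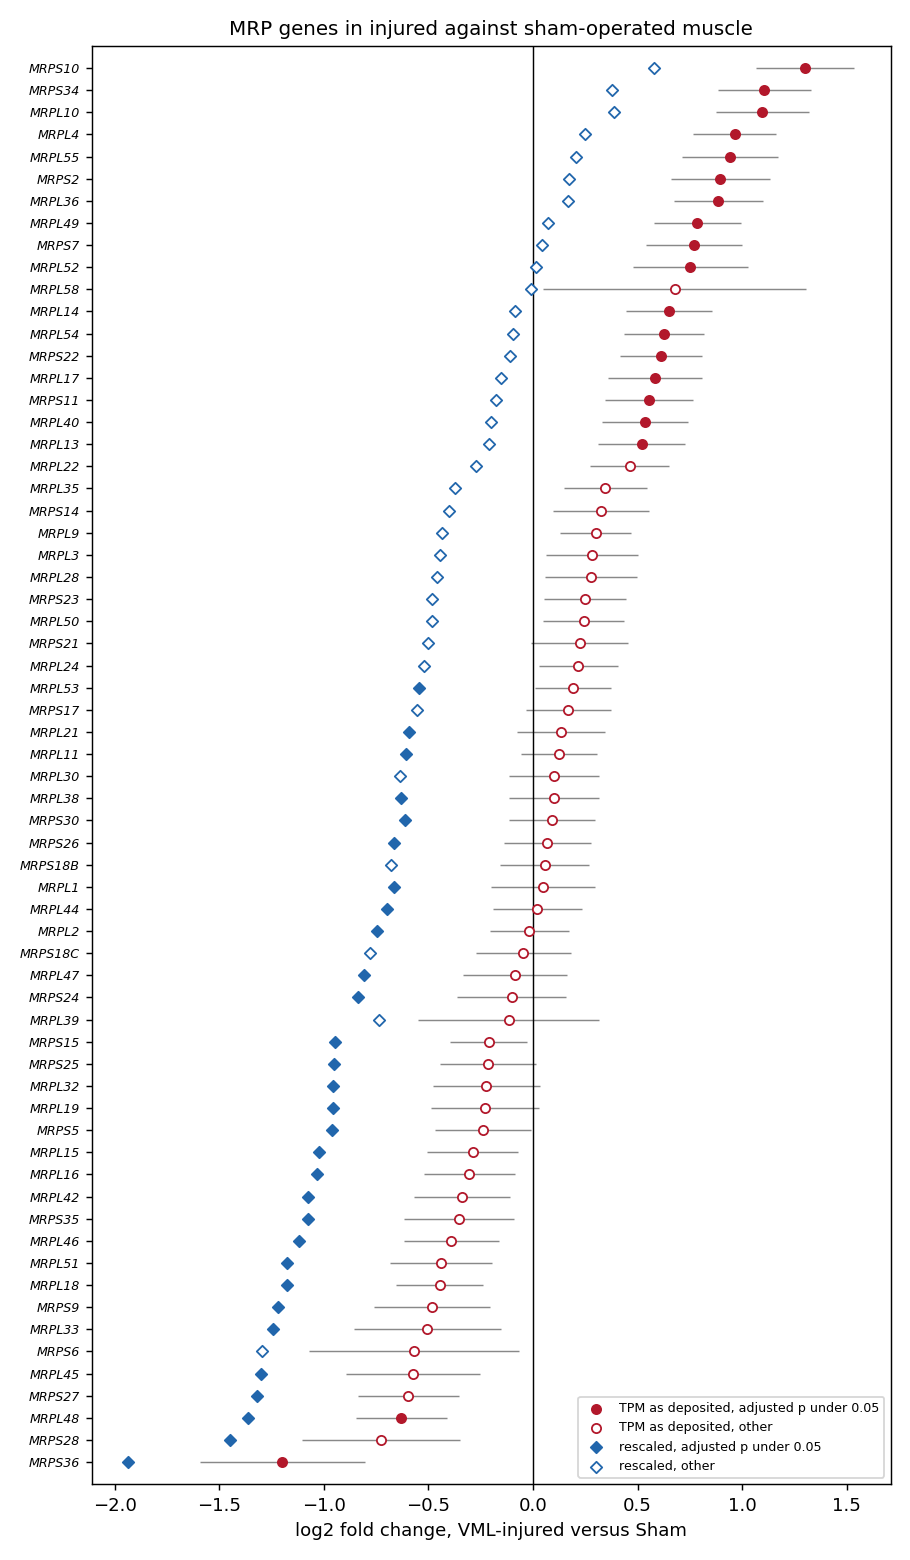
log2 fold change of 64 MRP genes, VML-injured (n = 10 limbs) versus Sham (n = 2), on TPM as deposited (circles, bars are 1 SE) and after rescaling by trimmed means (diamonds). Filled symbols passed an adjusted p of 0.05. Called genes are mainly higher on the TPM scale, 17 against 2, and all 30 are lower after rescaling.

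Limbs were also compared without a model. In 19 MRP genes all 10 injured limbs lay above both Sham limbs in TPM, and in 5 (MRPL45, MRPL48, MRPS27, MRPS36 and MRPS5, the last named after its values were seen) all lay below, against 49.8% and 8.52% of all genes. After rescaling, 1 gene lay above (MRPS10) and 23 below, against 30.6% and 26%. The share of MRP genes below was thus above that of all genes after rescaling and close to it in TPM.

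Among the genes at the upper end, MRPS10, a small subunit protein with a bacterial counterpart, stood highest. It measured 14.4 and 12.9 TPM in Sham pigs 25 and 26, 36.4 and 40.5 in the No repair limbs, 36.4 and 24.8 in HA pigs 16 and 17, and 28.2 to 45.0 in the ECM-SIS limbs. Every injured limb was above both Sham limbs, and the log2 fold change was 1.30 (SE 0.23, limma adjusted p = 0.00055) in TPM and 0.58 (adjusted p = 0.065) after rescaling. MRPS34, a mitochondria-specific small subunit protein in which inherited defects impair mitochondrial translation, had 18.3 and 26.7 TPM in Sham, 47.4 and 52.2 in No repair, 59.8 and 38.2 in HA, and 42.3 to 53.9 in ECM-SIS limbs. Its groups likewise did not overlap, and the difference was 1.11 in log2 (SE 0.22, limma adjusted p = 0.0012) in TPM and 0.38 (adjusted p = 0.13) after rescaling.

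Several large subunit genes stood next to these. MRPL10, which anchors the stalk that recruits translation factors, measured 7.88 and 9.28 TPM in Sham limbs and 14.1 to 23.8 TPM in injured ones, differing by 1.10 in log2 (SE 0.22, limma adjusted p = 0.0013). MRPL4, which lines part of the exit tunnel for the nascent chain, measured 8.62 and 11.7 TPM in Sham and 16.2 to 21.9 TPM in injured limbs, differing by 0.96 in log2 (SE 0.20, limma adjusted p = 0.0015). MRPL55 measured 37.1 and 39.5 TPM in Sham and 55.4 to 104.2 TPM in injured limbs, differing by 0.94 in log2 (SE 0.23, limma adjusted p = 0.0043). For all 3 the injured limbs lay above the Sham limbs in TPM, and after rescaling the fold changes were 0.39, 0.25 and 0.21 with adjusted p of 0.19, 0.23 and 0.62. Of the 17 genes called higher in TPM, 4 kept the call whichever limb was left out, namely MRPS10, MRPS34, MRPL10 and, named after its values were seen, MRPL36, whereas MRPL4 and MRPL55 lost it without Sham pig 25.

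Among the genes at the lower end, MRPS36 had the lowest fold change. It is named as a small subunit protein but is now regarded as a component of the 2-oxoglutarate dehydrogenase complex of the citric acid cycle. It measured 105.0 and 77.3 TPM in Sham, 47.3 and 45.6 in No repair, 20.4 and 72.2 in HA pigs 16 and 17, and 20.96 to 47.0 in ECM-SIS limbs. All injured limbs were below both Sham limbs, HA pig 17 closest to them, and the log2 fold change was -1.20 (SE 0.40, limma adjusted p = 0.021) in TPM and -1.93 (adjusted p = 0.0049) after rescaling. The call in TPM was lost without either Sham limb.

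MRPL48, a mitochondria-specific protein of the large subunit, was the other gene called lower in TPM. It measured 46.2 and 39.5 TPM in Sham limbs and 22.4 to 37.6 TPM in injured ones, for a difference of -0.63 in log2 (SE 0.22, limma adjusted p = 0.026) in TPM and -1.36 (adjusted p = 0.0025) after rescaling. Its call in TPM did not hold without No repair pig 23 or without either Sham limb. MRPS27, an RNA-binding protein with pentatricopeptide repeats, ran from 9.61 to 17.1 TPM in injured limbs against 19.6 and 22.8 in Sham, for a difference of -0.60 in log2 (SE 0.24, limma adjusted p = 0.0502, just outside the threshold) in TPM and -1.32 (adjusted p = 0.00056) after rescaling.

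MRPS28, a small subunit protein in the position of bacterial protein S1, ran from 5.87 TPM (HA pig 16) to 23.7 TPM (HA pig 17) in injured limbs and was 25.2 and 18.7 TPM in Sham limbs. The groups overlapped, and its log2 fold change was -0.73 (SE 0.38, limma adjusted p = 0.11) in TPM and -1.45 (adjusted p = 0.017) after rescaling. MRPL45, which lies at the exit tunnel and ties the ribosome to the inner membrane, ran from 6.66 TPM (ECM-SIS pig 13) to 23.5 TPM (HA pig 17), below 24.1 and 23.7 TPM in Sham, and its fold change was -0.57 (limma adjusted p = 0.14) in TPM and -1.30 (adjusted p = 0.0068) after rescaling. Of these 5 genes at the lower end, all passed the threshold after rescaling. They were picked for the lowest fold changes in TPM, and rescaling lowers the injured limbs against Sham. Their passing is therefore no separate result.

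**Figure D3:**
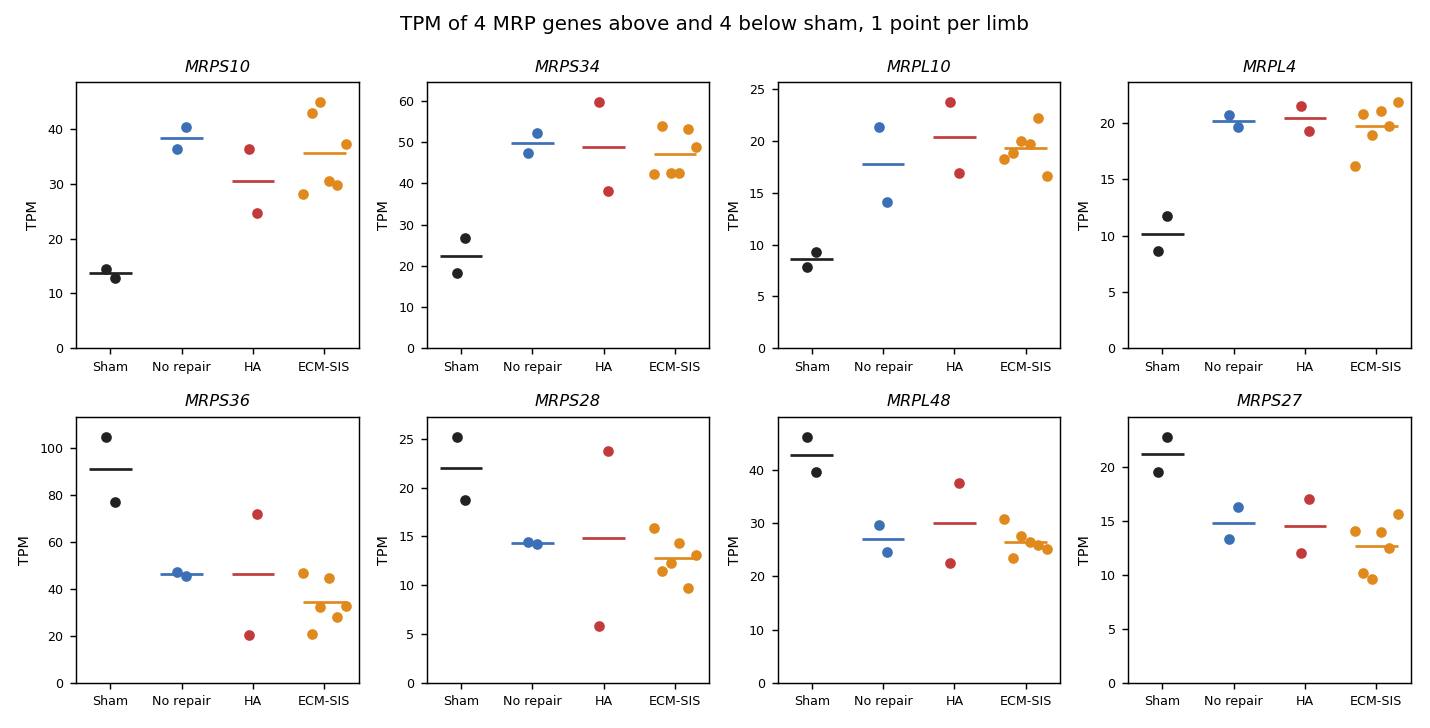
TPM (y axis, from 0) of the 4 MRP genes with the highest and the 4 with the lowest log2 fold change in injured against Sham limbs, with 1 point per limb and a line at each group mean. MRPS10, MRPS34, MRPL10 and MRPL4 do not overlap with Sham, nor do MRPS36, MRPL48 and MRPS27, whereas HA pig 17 puts MRPS28 at 23.7 TPM, between the Sham limbs. After rescaling none of the upper 4 passed the test of VML-injured versus Sham and all of the lower 4 did. The genes were chosen by TPM fold change and rescaling lowers the injured limbs against Sham, so this is no separate result.

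The ratio of MRPS36 to MRPS10, taken after the values were seen as the widest contrast within the set and free of any library scaling, was 7.30 and 5.99 in the Sham limbs. In the injured limbs it ran from 0.488 (ECM-SIS pig 14) to 2.92 (HA pig 17), with a median of 1.03. The levels of the pair were thus closer to each other in every injured limb than in either Sham limb, in a pair picked for its opposite fold changes.

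The 5 most abundant MRP genes did not all go one way. MRPL17 measured 110.3 and 102.8 TPM in Sham and 133.0 to 224.3 TPM in injured limbs, for a difference of 0.58 in log2 (limma adjusted p = 0.042) in TPM and -0.15 (adjusted p = 0.70) after rescaling. MRPL52 (73.6 and 75.8 TPM in Sham, 89.0 to 196.0 in injured limbs) and MRPL14 (54.7 and 52.3 in Sham, 67.7 to 101.3 in injured limbs) were also called higher in TPM, by 0.75 and 0.65, and not after rescaling, at 0.02 and -0.08. The TPM call of MRPL17 was lost in 9 of the 12 fits that left out 1 limb. That of MRPL14 was lost without either Sham limb, and that of MRPL52 without either of these or No repair pig 17. MRPL28 overlapped between groups, at 69.7 and 96.3 TPM in Sham and 68.5 to 111.8 in injured limbs. MRPL33, a small protein of the large subunit, had a log2 fold change of -0.51 in TPM (adjusted p = 0.23), with 191.7 and 115.5 TPM in Sham and 70.9 to 179.6 in injured limbs, where only the rescaled fold change of -1.24 passed (adjusted p = 0.036).

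Across the set the levels kept their order only in part. The log2 level of the 64 genes in the mean of the injured limbs followed that in the mean of the Sham limbs with a Pearson correlation of 0.87 and a Spearman correlation of 0.84, given as a description over genes, which are not independent and share the same libraries. The Sham limbs compared with each other gave 0.96 and 0.95. Mean TPM over the 12 limbs ran from 1.97 for MRPL39 to 154.8 for MRPL17, with a median of 30.4 over the 64 genes.

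**Figure D4:**
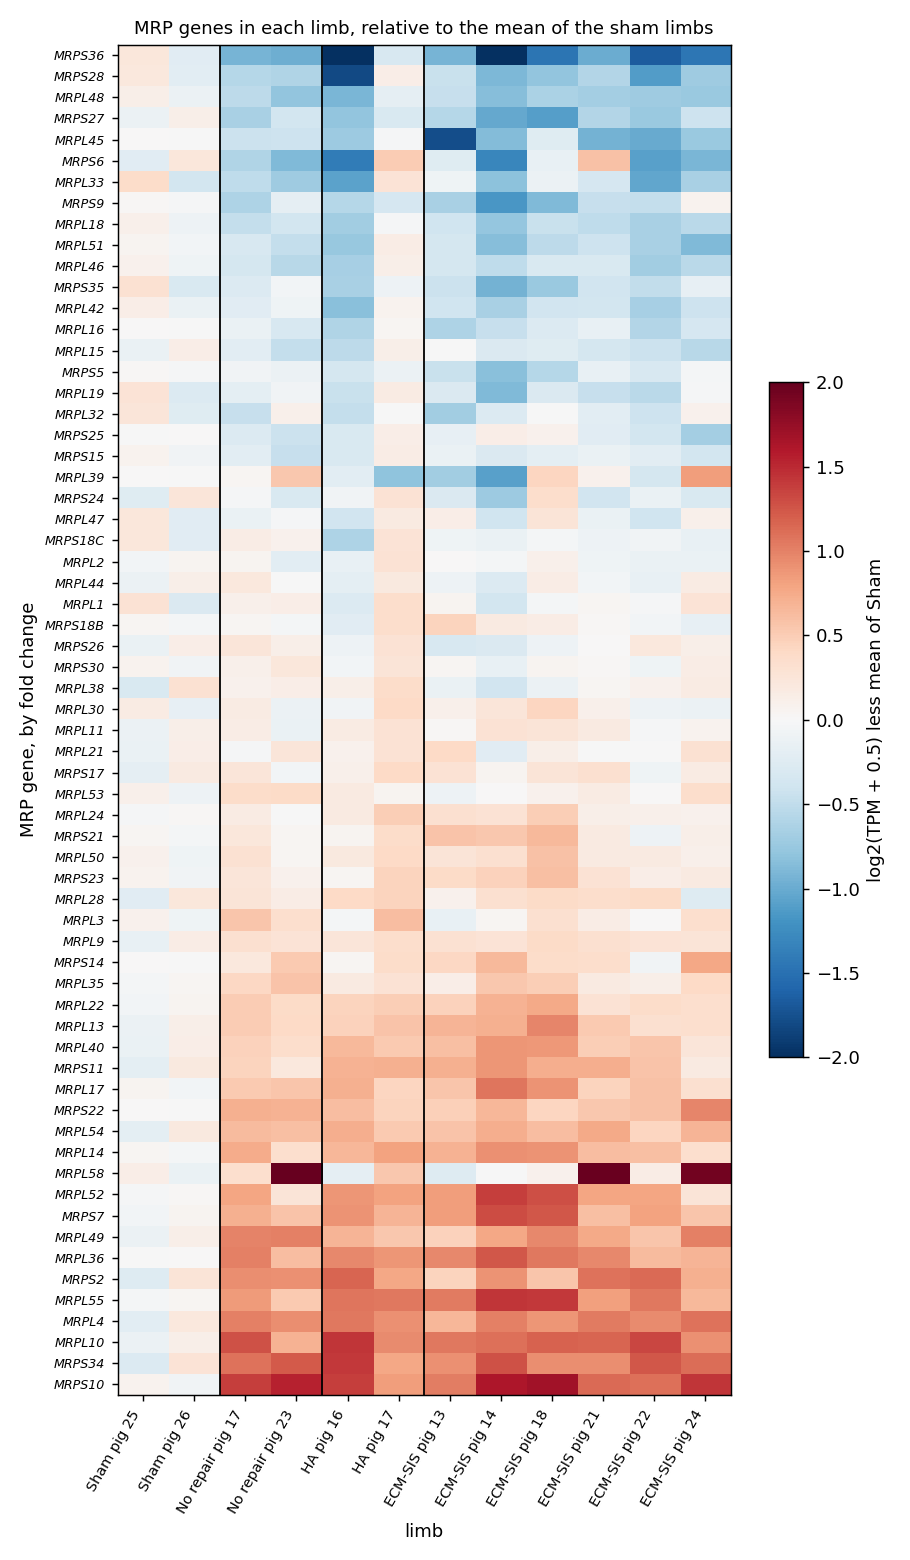
log2(TPM + 0.5) of the 64 MRP genes tested (rows, ordered by fold change) in each of the 12 limbs (columns), less the mean of the 2 Sham limbs. Red is above and blue below that mean, and the colours stop at 2 log2 units. The order of the rows runs from MRPS36 at the top to MRPS10 at the bottom; the injured columns show both signs in every limb, and rescaling would lower each injured column against Sham.

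Genes of both names were called, where 49.4% of all genes were called higher and 7.66% lower in TPM. On the TPM scale 11 of 40 MRPL genes were called higher and 1 lower, with a median log2 fold change of 0.16, and 6 of 24 MRPS genes were called higher and 1, MRPS36, lower, with a median of 0.06. Since MRPS36 is no longer counted as a ribosomal protein, and MRPS30 sits in the large subunit, the names only approximate the subunits. After rescaling 19 MRPL and 11 MRPS genes were called lower and none higher, where 26.1% of all genes were called lower and 31% higher. The summed TPM of the MRPL over that of the MRPS genes was 1.97 and 1.81 in the Sham limbs and 1.98 to 2.39 in the injured limbs, so the ranges nearly touched. The MRPS sum includes MRPS36, lower in every injured limb, and MRPS18A, for which no level is claimed. The ratio without them was not computed, so no shift between the subunits can be read from it. Genes with a bacterial counterpart had 11 of 39 called higher and 0 called lower in TPM, with a median of 0.17, and mitochondria-specific genes 6 of 23 higher and 1 lower, with a median of 0.09. After rescaling 16 of the 39 and 13 of the 23 were called lower and 0 higher, with medians of -0.55 and -0.63.

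MRP genes varied little among the injured limbs in TPM. The median SD of their log2 level over the 10 limbs was 0.22, against 0.40 for all genes tested and 0.35 for genes of similar level. After rescaling the order turned, at 0.36 for MRP genes against 0.33 for all genes and 0.30 for genes of similar level. MRPL9, singled out after its values were seen, lay between 41.6 and 45.9 TPM in all 10 injured limbs, a highest to lowest ratio of 1.10, above 31.6 and 38.9 TPM in Sham. Of 3 further genes in which inherited defects impair mitochondrial translation, MRPS22 was called higher in TPM (14.5 and 14.3 TPM in Sham, 19.6 to 28.9 in injured limbs, log2 fold change 0.61, limma adjusted p = 0.018) and was at -0.11 after rescaling, and lost the call without either Sham limb. MRPL3 and MRPL44 had log2 fold changes of 0.28 and 0.02 (adjusted p = 0.28 and 0.94), and -0.45 and -0.70 after rescaling. MRPL44, an RNase III-like protein of the large subunit, passed the test as lower only after rescaling (adjusted p = 0.016).

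Each injured group was then set against Sham. Against Sham, No repair limbs had 9 MRP genes called higher and 0 lower in TPM (by unadjusted p 1 lower), against 45.1% and 1.18% of all genes, and 0 higher (0 by unadjusted p) and 25 lower after rescaling, against 24.5% and 18.6%. HA limbs had 9 higher and 0 lower in TPM (unadjusted 1 lower), against 33.9% and 3.76%, and 0 higher (0 by unadjusted p) and 8 lower after rescaling, against 23.8% and 18.4%. ECM-SIS limbs had 18 higher and 5 lower (MRPL18, MRPL45, MRPL48, MRPS27 and MRPS36, MRPL18 named after its values were seen) in TPM, against 48% and 10%, and 1 higher (MRPS10, 0.64, adjusted p = 0.0495) and 29 lower after rescaling, against 31.5% and 27.1%. The 3 comparisons share both Sham limbs, and ECM-SIS has 6 limbs against 2 in the others.

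These counts rested on few limbs. Leaving out a Sham, No repair or HA limb leaves 1 library in its group, which can cost calls for any gene. Calls over all genes were not counted in these fits, so the changes cannot be read as particular to MRP genes. Without Sham pig 25 they fell to 1 higher in No repair, 0 in HA and 4 in ECM-SIS (with 0 lower) in TPM, and to 3, 0 and 8 lower after rescaling. Without Sham pig 26 ECM-SIS had 11 higher and 1 lower and HA 5 higher in TPM, and No repair 15 lower after rescaling. No repair had 3 higher without its pig 17 and 5 without pig 23 in TPM, and 6 and 3 lower after rescaling. HA had 0 higher without pig 16, and 6 lower without pig 17, in TPM, and 0 and 28 lower after rescaling. Leaving out HA pig 16 or 17 also gave 2 lower in No repair and 8 lower in ECM-SIS in TPM.

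Between the injured groups no MRP gene was called. ECM-SIS versus No repair, HA versus No repair and ECM-SIS versus HA each gave 0 of 64 at an adjusted p of 0.05, where 0% of all genes were called, and 0 MRP genes at an unadjusted p of 0.05 (71, 196 and 206 of all genes at that unadjusted p). The smallest adjusted p of an MRP gene was 0.90, 0.91 and 1.00. The 95% intervals of these differences had median half-widths of 0.49, 0.60 and 0.49 on the log2 scale, so that differences of that size remain possible for a typical member. The member medians were -0.02, 0.04 and -0.06 in TPM, and 0.16, 0.33 and -0.16 after rescaling.

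The HA limbs, which differed in their muscle fiber markers, were compared with each other after their values were seen. Of the 64 genes, 48 were higher in TPM in HA pig 17 than in HA pig 16, with a median ratio of 1.25 and a range of 0.555 to 4.04. The ratio was 4.04 for MRPS28, 3.86 for MRPS6 (named after its values were seen), 3.54 for MRPS36 and 2.54 for MRPL33, and 0.638 for MRPS34. In TPM, 24 of the 25 genes with a negative fold change against Sham were higher in HA pig 17, with a median ratio of 1.56, and 3 of the 17 called higher were, with a median ratio of 0.897. Both HA limbs enter the fold changes against Sham, so the genes were split by values that this comparison also uses. After rescaling 59 of the 64 genes were higher in HA pig 17, by a median of 0.69 in log2, among them 13 of the 17, so that the split of the 17 turned with the scale. Muscle fiber markers took 9.14% of TPM in HA pig 17 and 1.24% in HA pig 16; their part in these values was not tested. In pig 17 itself, 47 of 64 genes were higher in the HA than in the No repair limb, with a median TPM ratio of 1.13, and 59 lay within 1.5-fold. After rescaling 61 of 64 were higher in its HA limb, by a median of 0.57 in log2. The share over all genes was not computed for either pair of limbs, so these counts cannot be read as particular to MRP genes.

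The S18 genes gave 3 different pictures. Mammals have MRPS18A, MRPS18B and MRPS18C, paralogs of the bacterial protein S18, of which MRPS18A sits in the large subunit. MRPS18B (41.0 and 38.6 TPM in Sham, 34.0 to 54.1 in injured limbs) and MRPS18C (72.9 and 52.8 in Sham, 40.5 to 75.4 in injured limbs) overlapped between groups, with log2 fold changes of 0.06 and -0.05 in TPM and -0.68 and -0.78 after rescaling. Their adjusted p was 0.83 and 0.87 in TPM and 0.088 and 0.051 after rescaling, so neither was called on either scale.

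MRPS18A fell into high and low limbs. It was 43.6 TPM in Sham pig 26, 29.3 in ECM-SIS pig 13, 22.6 in ECM-SIS pig 22 and 16.8 in ECM-SIS pig 24. It was under 1 TPM, with several libraries listed at 0, in the other 8 limbs, Sham pig 25 included. The high and low limbs did not follow the groups, and since an exact 0 in estimated abundances can be a failed estimate, no level is claimed. MRPL58, a release factor-like protein of the large subunit, was singled out after its values were seen, at 19.4 to 21.5 TPM in ECM-SIS pigs 21 and 24 and No repair pig 23 and 3.87 to 7.10 TPM in the others.

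**Figure D5:**
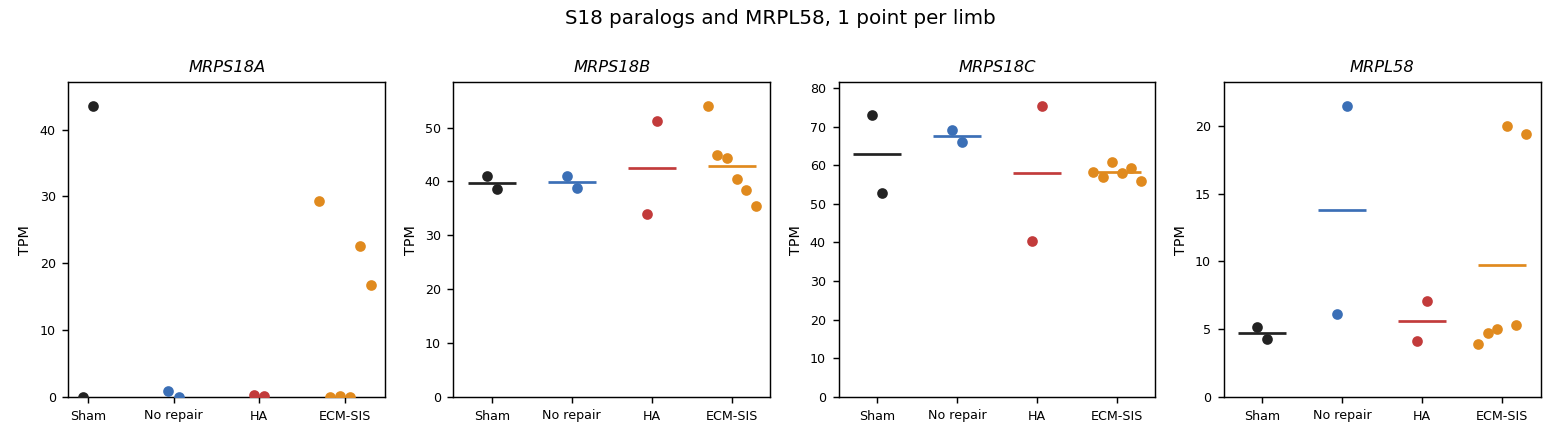
TPM (y axis, from 0) of the S18 paralogs and of MRPL58, with 1 point per limb and a line at each group mean, left out for MRPS18A. MRPS18A and MRPL58 fall into high and low limbs within groups, such as 43.6 and 0 TPM in Sham for MRPS18A, while MRPS18B and MRPS18C overlap between groups.

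MRPS30 varied little between groups in TPM, and MRPS24, picked for a small p in ECM-SIS versus HA, overlapped between injured and Sham limbs. MRPS30, which sits in the large subunit in mammals, measured 8.55 and 7.80 TPM in Sham and 7.34 to 9.86 in injured limbs, a log2 fold change of 0.09 in TPM and -0.61 after rescaling (adjusted p = 0.025). MRPS24 measured 34.0 and 47.7 TPM in Sham and 24.2 to 51.5 in injured limbs, with fold changes of -0.10 and -0.83 (adjusted p = 0.032 after rescaling). The lowest member tested, MRPL39, stayed between 0.666 and 3.91 TPM, with 1.99 and 1.96 TPM in Sham, so its fold change of -0.12 had an SE of 0.43. The remaining genes chosen by a small p between injured groups were MRPL38, MRPL49, MRPL53 and MRPS11. MRPL49 (9.86 and 11.8 TPM in Sham, 15.1 to 22.2 in injured limbs) and MRPS11 (33.2 and 43.7 in Sham, 43.3 to 70.6 in injured limbs) were called higher in TPM, at 0.79 and 0.55, and not after rescaling, at 0.07 and -0.18. The TPM call of MRPS11 was lost in 9 of the 12 fits that left out 1 limb, and that of MRPL49 without Sham pig 25. MRPL38 and MRPL53 were called only after rescaling, as lower, at -0.63 and -0.54.

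Other genes of mitochondrial protein synthesis, from lists fixed for this purpose, were mixed. Over all genes tested, 49.4% were called higher and 7.66% lower in TPM, and 31% and 26.1% after rescaling. Of 4 subunits that carry other names, GADD45GIP1 was called higher in TPM (43.0 TPM in Sham, 101.6 in injured limbs, log2 fold change 1.25, limma adjusted p = 0.00084) and not after rescaling (0.52, adjusted p = 0.15), while DAP3, PTCD3 and CHCHD1 were not called in TPM. DAP3 (-0.45, adjusted p = 0.031) and PTCD3 (-1.11, adjusted p = 0.00076) were called lower after rescaling. Of 9 translation factors tested, 0 were called higher and 3 lower in TPM, namely GFM1, an elongation factor (-0.97), TACO1, an activator of translation (-0.85), and MTIF2, an initiation factor (-0.75), the last named after its values were seen. After rescaling 6 of the 9 were called lower. The elongation factor TUFM was 55.6 TPM in Sham and 41.7 in injured limbs, called lower only after rescaling (-1.08, adjusted p = 0.0016).

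Of 18 assembly factors tested, 4 were called higher and 0 lower in TPM, where 49.4% and 7.66% of all genes were. The 4 were MRM1, TFB1M, RPUSD4 and MPV17L2, some named after their values were seen. TFB1M, a methyltransferase of the small ribosomal RNA, measured 4.35 TPM in Sham and 11.55 in injured limbs (log2 fold change 1.25 in TPM and 0.57 after rescaling, adjusted p = 0.032 there), and RPUSD4, which modifies the large ribosomal RNA, 1.94 and 5.59 TPM (1.30 and 0.68, adjusted p = 0.027). After rescaling 2 assembly factors were higher and 8 lower, against 31% and 26.1% of all genes. The same shares over all genes apply to the next 2 lists. Of 7 mitochondrial tRNA synthetases, 2 were higher (CARS2 and EARS2) and 0 lower in TPM, and 1 (EARS2) was higher and 2 (NARS2 and YARS2) lower after rescaling. Of 13 genes of mitochondrial DNA expression 1 was higher (SSBP1, 0.79) and 1 lower (LRPPRC, which stabilises mitochondrial messenger RNA, -0.78), with 0 higher and 8 lower after rescaling.

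Against these, the respiratory chain list stood lower and the cytosolic ribosome list higher. The shares called over all genes were 49.4% higher and 7.66% lower in TPM, and 31% and 26.1% after rescaling. Of 62 respiratory chain subunits 2 were called higher and 24 lower in TPM, with a median of -0.74, and 1 and 49 after rescaling, with a median of -1.48. Of 73 cytosolic ribosomal proteins 50 were called higher and 1 lower in TPM, with a median of 0.86, and 2 and 1 after rescaling, with a median of 0.11. The lists of cell type and proliferation markers differed in their shift. In TPM 12 of 15 muscle fiber markers were called lower (median -2.26, or -3.00 after rescaling). Called higher in TPM were 9 of 9 fibroblast, 9 of 9 macrophage, 8 of 8 proliferation and 3 of 4 lymphocyte markers tested. For endothelial, adipocyte and erythroid markers, 0 of 7, 0 of 5 and 0 of 1 tested were called in either direction in TPM. The summed macrophage markers were 0.00442 and 0.00742% of TPM in Sham and 0.0863 to 0.208% in injured limbs, and the fibroblast markers 0.156 and 0.233% against 5.29 to 12.8%. The part of these cells in the MRP values was not tested.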

How the data were processed

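Total RNA from 12 PT muscle samples was sequenced as paired 76 bp reads. Per the labels and methods, the authors pseudoaligned the reads to the pig genome (build 9.2) with kallisto and deposited TPM per gene. An average of 55 M reads per library is stated, but TPM does not carry depth, so no counting interval is given. From these TPM values, a gene was kept if it reached 1 TPM in every library of at least 1 group, and log2(TPM + 0.5) was fitted with limma 3.58.1 (R 4.3.3) on all 12 libraries, with a term per group, trend and robust estimation and Benjamini-Hochberg adjustment at 0.05; fold changes are on that scale and understate changes of low genes. The 1 pig with a limb in each of 2 groups was not modelled. The p-values measure the spread between these limbs, with 1 estimate per gene shared by all groups. Groups of 2 limbs give almost no spread of their own, so that estimate draws mainly on the ECM-SIS limbs. Rescaled values use trimmed means of log ratios (30% and 5% trimmed). Scripts were tested on simulated data. All table columns were mapped to samples (0 left out).

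The members and lists were chosen with earlier results of these data known. Named MRP genes are the 5 highest in mean TPM, the 5 highest and 5 lowest fold changes, the 3 smallest p per comparison, a fixed list, and those below the filter; exceptions, and genes making up small counts, were chosen after their values were seen. Alternatives were other scalings, pseudocounts, filters and left-out limbs; leaving out limbs after rescaling was added after the data were seen.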

Additional observations from a re-analysis of the deposited data

How the results depend on the processing

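The scale decided the direction of the MRP set. Trimmed-mean and median-of-ratios scaling gave the same counts: 0 higher and 30 lower in VML-injured, 0 and 25 in No repair, 0 and 8 in HA, 1 and 29 in ECM-SIS versus Sham. With the genes under 1000 TPM as the total they were 4 and 17, 2 and 7, 4 and 4, and 4 and 22. The median of -0.61 under both scalings was -0.35 with that total, and the MRP share was 1.10% in Sham and 0.861% in injured limbs. Fitting only the libraries compared gave 2 lower in No repair, 0 higher in HA and 8 lower in ECM-SIS; without both limbs of pig 17, VML-injured had 6 lower, No repair 4 higher and HA 4 lower.

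Rescaling by trimmed means turned the sign of MRPL14 (-0.084), MRPL17 (-0.15), MRPL28 (-0.46), MRPL3 (-0.45), MRPL38 (-0.63), MRPL44 (-0.70), MRPL53 (-0.54), MRPS11 (-0.18), MRPS18B (-0.68), MRPS22 (-0.11) and MRPS30 (-0.61), and median-of-ratios scaling gave the same signs at -0.083, -0.15, -0.46, -0.45, -0.63, -0.70, -0.54, -0.18, -0.68, -0.11 and -0.61. With the genes under 1000 TPM as the total, MRPL28 (-0.19), MRPL3 (-0.18), MRPL38 (-0.37), MRPL44 (-0.44), MRPL53 (-0.28), MRPS18B (-0.41) and MRPS30 (-0.36) turned. Without both limbs of pig 17 MRPL39 (0.067), MRPL44 (-0.081) and MRPS18B (-0.055) turned.

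Leaving out 1 limb at a time gave 4 to 18 higher and 0 to 9 lower for VML-injured, 1 to 10 and 0 to 2 for No repair, 0 to 13 and 0 to 6 for HA, and 4 to 18 and 0 to 8 for ECM-SIS. The lowest counts came without Sham pig 25 (4, 1, 0 and 4 higher) and, for HA, without HA pig 16 (0); the highest lower counts without HA pig 17 (9, 2, 6 and 8). No repair had 3 higher without its pig 17 and 5 without pig 23, and Sham pig 26 moved the first count to 9. Single genes ranged over -0.28 to 0.19 (MRPS18C), -0.10 to 0.14 (MRPL44), -0.042 to 0.15 (MRPS18B), -0.20 to 0.40 (MRPL38) and -0.34 to 0.14 (MRPS24). After rescaling, the lower counts ran from 4 to 36, 3 to 31, 0 to 28 and 8 to 32. Other pseudocounts, other filters and a fit without trend and robust estimation kept every count of calls within 1.5 times. Pig 17 is the only animal the groups share. No paired analysis was possible because the groups share only that 1 animal. With 2 Sham limbs and unknown depth, small differences in low genes cannot be resolved. Calls over all genes were counted only for the main fit and for trimmed means on all 12 libraries. Changes of the MRP counts under the other alternatives therefore cannot be read as particular to MRP genes.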
